A study of Mus musculus with 38 samples.

Results

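The binding of RUNX1, CTCF, Med12, p300 and Notch1-IC was mapped around Myb, Satb1, Tox and Bach2, 4 genes for transcription and chromatin regulators of early lymphocytes. A peak was taken as a member when its centre lay from 150 kb before to 150 kb after the body of 1 of the 4 genes, and this rule gave 520 of the 359759 peaks in 17 lists. The ChIP-seq samples came from mouse Cas9-LP cells, lymphoid progenitor lines grown from fetal liver that lack Ebf1 and carry Cas9 at Rosa26, so that every group shared both alleles. Cells on OP9 stroma, which presents no Notch ligand, are called LP. Cells moved onto OP9-DLL4 stroma are called Phase 1 early after the move and Phase 2 later. Each list was made from 2 replicates, and 4 input samples in 2 groups had no list of their own.

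RUNX1, CTCF, Med12 and p300 had a list for LP and for Phase 1 in cells without guides, and Notch1-IC had lists for LP, Phase 1 and Phase 2. The groups with guides received a retroviral pool of guide RNAs against Ctcf (sgCTCF), Cbfb (sgCbfb) or Med12 (sgMed12), or a control against luciferase (sgCont). The vectors also carried a human NGFR marker, but the study's ChIP-seq methods do not state whether infected cells were picked by it. RUNX1 was profiled with sgCont and sgCTCF in LP and with sgCont and sgMed12 in Phase 1, and Med12 with sgCont and sgCbfb in Phase 1. Peak lists hold no transcript or protein level, so neither the loss of a targeted gene nor the cell type could be checked from them. The RUNX1, CTCF, Med12 and p300 lists of cells without guides held 30020 to 49116 peaks, the Notch1-IC lists 152 to 1585, the RUNX1 lists with guides 874 to 2094 and the Med12 lists with guides 18099 and 19053. The study describes the ChIP-seq with guides as made from few cells and noisy.

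RUNX1 binds DNA through its Runt domain and needs the partner CBFβ, encoded by Cbfb, to bind well. Med12 belongs to the kinase module of Mediator, which links enhancer-bound factors to RNA polymerase II, and p300 is an acetyltransferase found at active enhancers. CTCF is an architectural protein that anchors chromatin loops. Ligand binding releases the intracellular domain of Notch1 (Notch1-IC), which is brought to DNA by RBPJ. Myb is required in blood progenitors and thymocytes, and distal enhancers of Myb are known between it and the neighbouring gene Hbs1l. Satb1 organizes chromatin in thymocytes, Tox is a high-mobility-group factor needed for the development of several T and innate lymphoid lineages, and Bach2 is a repressor of the basic leucine zipper family that restrains effector programs in B and T cells.

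Positions are those of mm10, with genes from GENCODE M21, and distances are given in kb from the gene's start along its own direction. Myb lay at chr10:21124935-21160984 on the minus strand, and its window also held the coding genes Ahi1, downstream of Myb, and Hbs1l, upstream of it. Satb1 lay at chr17:51736187-51833290 and Tox at chr4:6686353-6991557, both on the minus strand and with no other coding gene in the window. Bach2 lay at chr4:32238804-32586108 on the plus strand, with Gja10, Casp8ap2 and Mdn1 in its window. A peak in a window was not shown to act on the member gene. The windows ran over 336.1 kb for Myb, 397.1 kb for Satb1, 605.2 kb for Tox and 647.3 kb for Bach2.

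Myb had 166 peaks from all lists, Satb1 52, Tox 78 and Bach2 224. Merging peaks that overlapped across lists left 40 regions at Myb, 14 at Satb1, 20 at Tox and 50 at Bach2, 124 in all. Of these regions 17 had peaks in only 1 list, and 17 had peaks in 8 or more lists. The region with the most lists, 12, lay +106.07 kb from the Myb start inside an intron of Ahi1.

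The 200 bases around the centre of high-scored RUNX1 peaks that held at least 1 searched string are printed here from the plus strand of GRCm38, since the binding results below turn on many of them. They came from the naming rule, the 3 highest-scored peaks of a class at each gene, under which Bach2 +149.27 kb, tied in score with +10.53 kb in Phase 1, was not taken. Peaks touching an untranslated region were left out, among them the strongest site of Satb1, no window of Tox is printed, and Myb +112.05 kb was added after its values were seen because it carried a Notch1-IC peak. The windows were Bach2 +376.51 kb at chr4:32615210-32615409, Myb -91.35 kb at chr10:21252231-21252430, Bach2 +105.18 kb at chr4:32343885-32344084, Myb +106.07 kb at chr10:21054811-21055010, Bach2 +19.49 kb at chr4:32258195-32258394, Bach2 +10.53 kb at chr4:32249231-32249430, Myb +60.19 kb at chr10:21100694-21100893 and Myb +112.05 kb at chr10:21048832-21049031. Capitals mark matches on either strand to short consensus strings. The string for RUNX was TGTGGTT, or TGCGGTT as its variant, and that for RBPJ, the partner of Notch1-IC, was GTGGGAA. The string for AP-1 was TGAGTCA, or TGACTCA as its variant. Those for GATA factors were AGATAA, for TCF factors CTTTGAT and for E-box proteins CAGCTG, and PU.1 was searched by its usual consensus. A match is a description of the letters and not of a bound site.
Bach2 +376.51 kb: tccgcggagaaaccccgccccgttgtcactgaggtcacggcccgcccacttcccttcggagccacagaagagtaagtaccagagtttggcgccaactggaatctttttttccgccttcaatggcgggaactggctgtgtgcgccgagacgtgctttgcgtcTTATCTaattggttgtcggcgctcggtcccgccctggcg
Myb -91.35 kb: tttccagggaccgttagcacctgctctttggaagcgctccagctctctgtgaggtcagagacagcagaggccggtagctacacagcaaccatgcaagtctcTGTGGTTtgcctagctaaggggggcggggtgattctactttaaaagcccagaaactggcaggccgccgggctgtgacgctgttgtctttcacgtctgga
Bach2 +105.18 kb: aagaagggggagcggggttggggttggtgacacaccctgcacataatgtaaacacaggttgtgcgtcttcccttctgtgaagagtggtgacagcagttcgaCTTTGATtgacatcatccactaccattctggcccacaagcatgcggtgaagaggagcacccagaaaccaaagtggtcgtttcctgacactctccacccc
Myb +106.07 kb: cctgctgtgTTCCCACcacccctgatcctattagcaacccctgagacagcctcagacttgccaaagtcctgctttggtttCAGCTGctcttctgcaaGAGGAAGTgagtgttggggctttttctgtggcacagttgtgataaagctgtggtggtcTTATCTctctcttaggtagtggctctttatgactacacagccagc
Bach2 +19.49 kb: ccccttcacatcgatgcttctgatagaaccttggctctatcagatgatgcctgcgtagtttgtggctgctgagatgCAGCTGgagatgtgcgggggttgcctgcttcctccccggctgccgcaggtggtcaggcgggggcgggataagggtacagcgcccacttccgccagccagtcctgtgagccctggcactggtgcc
Bach2 +10.53 kb: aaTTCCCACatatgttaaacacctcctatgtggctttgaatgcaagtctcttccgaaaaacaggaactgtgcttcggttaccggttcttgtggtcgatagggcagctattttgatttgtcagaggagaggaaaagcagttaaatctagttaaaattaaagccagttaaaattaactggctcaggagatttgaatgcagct
Myb +60.19 kb: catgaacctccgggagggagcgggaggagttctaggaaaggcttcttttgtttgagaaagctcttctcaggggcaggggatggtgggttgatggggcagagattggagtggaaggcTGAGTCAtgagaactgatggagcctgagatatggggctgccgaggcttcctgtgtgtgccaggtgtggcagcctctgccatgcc
Myb +112.05 kb: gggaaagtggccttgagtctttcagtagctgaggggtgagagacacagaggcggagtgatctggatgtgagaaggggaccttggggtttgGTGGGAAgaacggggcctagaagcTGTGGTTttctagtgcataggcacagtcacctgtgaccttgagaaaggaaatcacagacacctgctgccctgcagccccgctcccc

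The first question was how RUNX1 binding at the 4 genes differed before and after Notch stimulation. RUNX1 had 52 peaks in LP (Myb 14, Satb1 5, Tox 7, Bach2 26) and 67 in Phase 1 (Myb 20, Satb1 7, Tox 10, Bach2 30). The score is the peak score of the authors, with 15 as the lowest value, and its scale was not stated, so signal was compared between lists only as a rank, the percent of peaks in the same list that scored no higher. A peak was called stage-specific when no peak of the same factor in the other stage shared at least 1 bp with it, and RUNX1 sites were counted outside promoters as annotated by HOMER. Shares are given with 95% Wilson intervals, which cover counting error only, because each list combined its replicates and left no error between cultures.

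Outside promoters, 6 of 46 LP sites were LP-specific (13.0%, 6.12 to 25.7), against 21.3% of the whole LP list. In Phase 1, 20 of 60 sites were Phase 1-specific (33.3%, 22.7 to 45.9), against 38.1% of the whole Phase 1 list. The other 40 sites were bound in both stages. Phase 1-specific sites made up 7 of 17 at Myb (41.2%), 3 of 6 at Satb1 (50%), 4 of 9 at Tox (44.4%) and 6 of 28 at Bach2 (21.4%). LP-specific sites numbered 2 of 12, 1 of 4, 1 of 6 and 2 of 24 in the same order. At each of the 4 genes Phase 1-specific sites thus outnumbered LP-specific ones, and both shares over the 4 genes had intervals that included those of the whole lists.

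The share of Phase 1-specific sites was compared between genes with two-sided Fisher's exact tests on all 6 pairs, adjusted with 4 further tests. None was called, with adjusted p from 0.43 to 1 in the exact tests. The widest gap was that between Satb1 (50%) and Bach2 (21.4%), with an odds ratio of 3.67 and an exact p of 0.306. A population of cells was profiled in each case, so binding in fewer cells and weaker binding in each cell cannot be told apart.

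**Figure D1:**
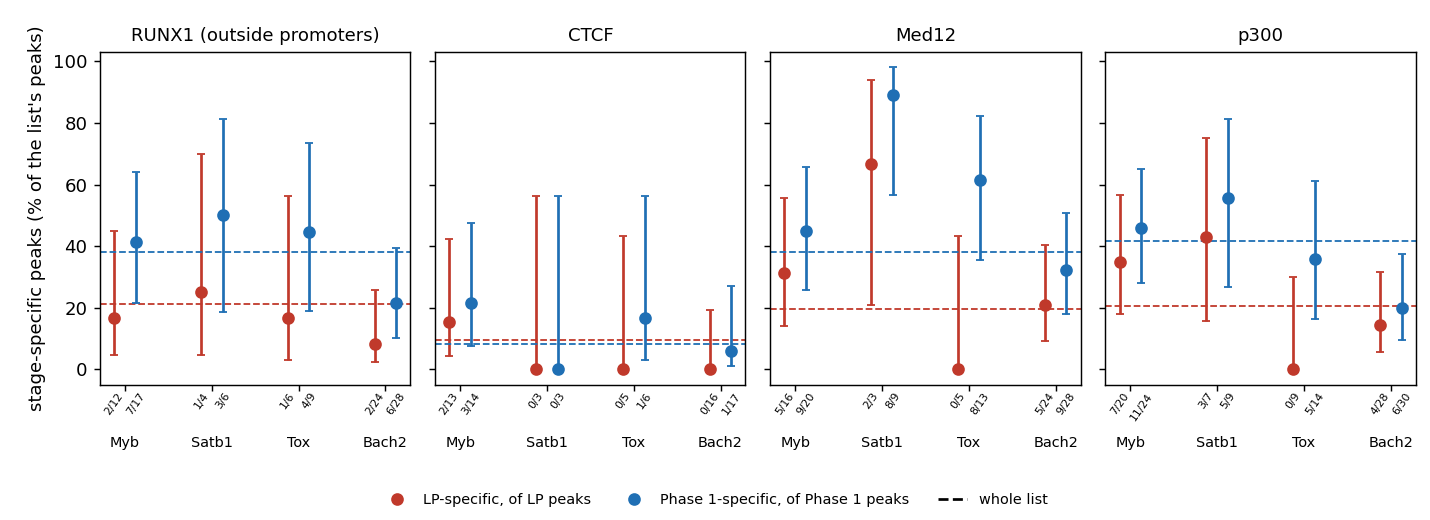
Share of peaks without a counterpart in the other stage, in percent of the list's peaks at each gene, for RUNX1 outside promoters and for all CTCF, Med12 and p300 peaks. Points are shares with 95% Wilson intervals, fractions give the counts, and dashed lines give the share of the whole list. Bach2 has the lowest Phase 1-specific share of RUNX1 sites (6/28) and Satb1 the highest of Med12 peaks (8/9).

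Myb had the densest RUNX1 binding of the 4 genes, with 5.95 Phase 1 peaks per 100 kb of window, followed by Bach2 with 4.63, Satb1 with 1.76 and Tox with 1.65. Its strongest site lay at -91.35 kb, between Myb and Hbs1l (chr10), and scored 154.3 in LP and 193.9 in Phase 1, at the 90.1 and 93.7 percent ranks. The same region gave the highest-scored p300 peaks of all 4 windows, with scores of 534.6 in LP and 551.7 in Phase 1, and Med12 peaks at the 93.3 and 98.6 percent ranks. The site at -74.39 kb was also bound in both stages, with RUNX1 at the 50.5 and 71.5 percent ranks. Both stages also had RUNX1 at the Myb start itself, where peaks centred at -0.04 and -0.05 kb scored 71.6 in LP and 72.9 in Phase 1.

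Downstream of Myb, the sites that stood higher in Phase 1 included 3 that are described here. The site at +60.19 kb, in an exon of the noncoding gene Gm48189, had no LP RUNX1 peak and scored 114.8 in Phase 1. The site at +112.05 kb, in an intron of Ahi1, had no LP RUNX1 peak either and scored 78.4 in Phase 1. The site at +106.07 kb, in the same gene, scored 21.4 in LP and 133.2 in Phase 1, and moved from the 15.5 to the 86.5 percent rank. These 3 sites were chosen for description after their values were seen.

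Med12 and p300 were found at the same 3 sites in Phase 1. At +60.17 kb Med12 had a Phase 1 peak at the 97.2 percent rank and none in LP, while p300 moved from the 2.5 to the 92.9 percent rank. At +106.08 kb Med12 moved from the 25.6 to the 98.0 percent rank, and p300 at +106.07 kb from 23.8 to 93.0. At +112.06 kb neither had an LP peak, and in Phase 1 Med12 stood at the 88.9 and p300 at the 80.9 percent rank. All 3 sites therefore carried the 3 factors at high rank in Phase 1 and either no peak or a low-ranked one in LP.

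Of the other sites at Myb, some also rose, some went the opposite way and some were weak. Near -46.59 kb RUNX1 moved from the 33.6 to the 64.2 percent rank, Med12 from 28.2 to 57.1 and p300 from 40.4 to 56.6. At +42.67 kb RUNX1 moved from the 0.9 to the 37.3 percent rank. The site at +77.28 kb, between Myb and Ahi1, held RUNX1 at the 74.4 percent rank in LP and at 31.7 in Phase 1, with Med12 at 68.8 and 11.5 and p300 at 79.1 and 24.6. The LP-specific sites lay at +9.48 kb in an intron of Myb (score 28.9) and at +168.07 kb in an intron of Ahi1 (22.7). The remaining 5 Phase 1-specific sites outside promoters, at +168.94, +165.54, +7.20, -22.05 and -43.41 kb, scored 24.2 to 38.7. The sites at +60.19 and +112.05 kb were thus the only Phase 1-specific ones at Myb with a score over 40.

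**Figure D2:**
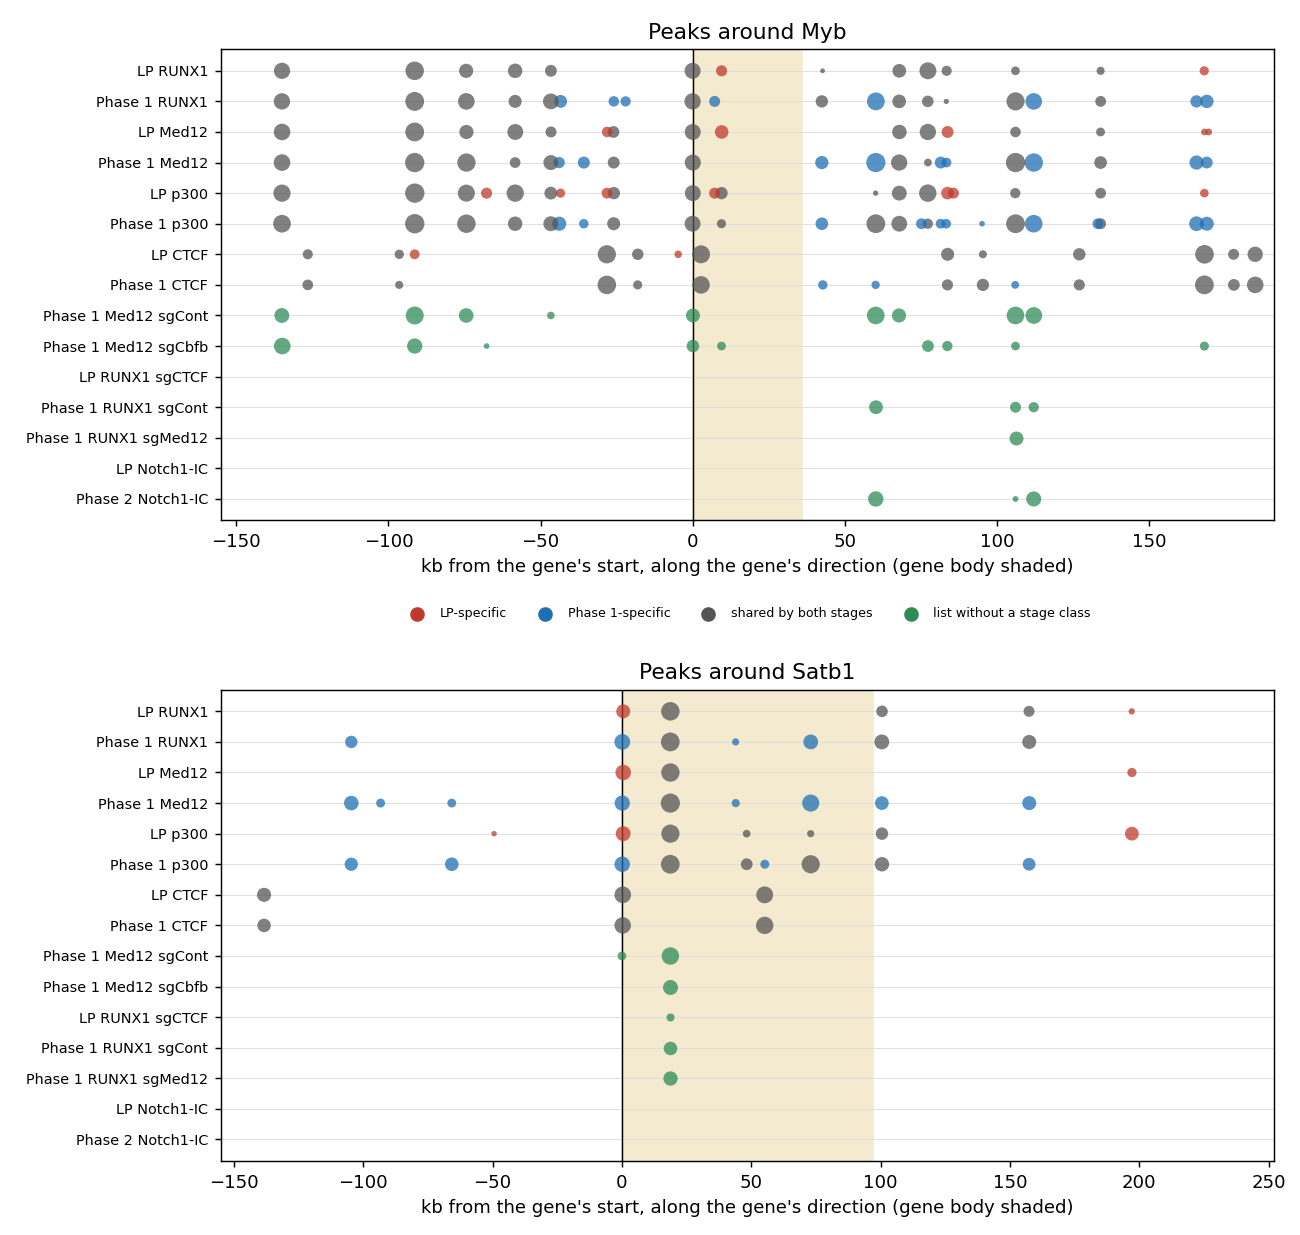
Every peak around Myb and Satb1 by list (rows) and distance from the gene's start in kb (horizontal axis). Point size grows with the peak's rank within its own list, colour gives the stage class, and the gene body is shaded (the LP sgCont RUNX1 and Phase 1 Notch1-IC lists had no peak and are not drawn). At Myb the large Phase 1 points from +60.19 to +112.05 kb recur in the rows for RUNX1, Med12, p300, sgCont and Phase 2 Notch1-IC, whereas Satb1 has a single region, at +18.73 kb, that recurs in 11 lists.

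Satb1 had few RUNX1 sites, and 1 of them dominated. At +18.73 kb RUNX1 scored 156.7 in LP and 182.6 in Phase 1, at the 90.4 and 92.8 percent ranks, and Med12 and p300 peaks lay there in both stages. The region was in an untranslated exon of an annotated Satb1 transcript, and HOMER gave it as the first intron of another. The next sites, at +100.56 and +157.39 kb beyond the gene, had low LP ranks of 31.8 and 28.2 and Phase 1 ranks of 56.5 and 49.3. The Phase 1-specific sites at +73.00, +43.97 and -104.62 kb scored 50.4, 17.6 and 32.5, and the single LP-specific site outside promoters at +197.11 kb scored 17.0. At +73.00 kb Med12 had a peak in Phase 1 only (score 75.8), and p300 moved from the 8.9 to the 86.6 percent rank.

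At the start of Satb1 the RUNX1 peak lay in different places in the 2 stages. The LP peak was centred at +0.50 kb (score 45.8) and the Phase 1 peak at +0.15 kb (score 64.4), and they shared no base. Med12 had its LP peak at +0.50 kb and its Phase 1 peak at +0.13 kb, and p300 at +0.47 and +0.11 kb. The CTCF peak between them lay at +0.32 kb in LP and +0.30 kb in Phase 1, with scores of 128.7 and 129.3. All 3 factors were thus counted as stage-specific at this start in both stages, although their peaks lay within the same merged region.

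Tox had its strongest RUNX1 site at +66.63 kb in its first intron. It scored 155.4 in LP and 180.8 in Phase 1 and was found in 11 lists. The neighbouring intronic site at +57.31 kb scored 111.0 in LP and stood at the 81.5 percent rank there and at 72.1 in Phase 1. At the Tox start, RUNX1 scored 49.1 in LP and 60.0 in Phase 1, at +0.90 and +0.88 kb. The Phase 1-specific sites at +89.29, +56.45, +37.70 and -47.91 kb scored 59.7, 31.4, 17.2 and 19.0, and the LP-specific site at +199.05 kb scored 20.7. Just beyond the end of the gene, the shared site at +309.35 kb moved from the 20.6 to the 69.6 percent rank and that at +314.20 kb from 10.2 to 50.2, and each also held a Phase 1 Med12 and p300 peak.

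Bach2 had the most RUNX1 sites, and 22 of its 24 LP sites outside promoters also had a Phase 1 peak. The highest-scored site in any of the 4 windows lay at +376.51 kb, 226.7 in LP and 222.6 in Phase 1, but this is a promoter peak at the start of Casp8ap2 and not of Bach2. Inside the gene, the sites at +10.53, +19.49 and +149.27 kb, in introns of Bach2, stood at the 70.5, 78.5 and 76.3 percent ranks in LP and at 83.3, 83.5 and 83.3 in Phase 1. At the Bach2 start, peaks centred at -0.21 and +0.72 kb in LP scored 45.2 and 47.9, and those at -0.09 and +0.68 kb in Phase 1 scored 43.1 and 44.4. HOMER gave these 4 peaks as intergenic, so they were counted as outside promoters.

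The site at +105.18 kb in Bach2 scored 193.4 in LP and 84.6 in Phase 1, at the 94.1 and 73.7 percent ranks. Med12 there stood at the 90.9 percent rank in LP and 58.2 in Phase 1, and p300 scored 265.0 in LP and stood at the 72.3 percent rank in Phase 1. The site at +52.87 kb went the other way, from 57.6 to 79.6 for RUNX1, 54.1 to 94.6 for Med12 and 64.5 to 91.5 for p300. The highest-scored Phase 1-specific sites, at +12.33, +182.97 and +81.13 kb, scored 51.0, 26.3 and 22.2, and the LP-specific sites at +114.18 and +306.90 kb scored 23.0 and 22.3. No stage-specific RUNX1 site at Bach2 ranked above the 55.9 percent rank.

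**Figure D3:**
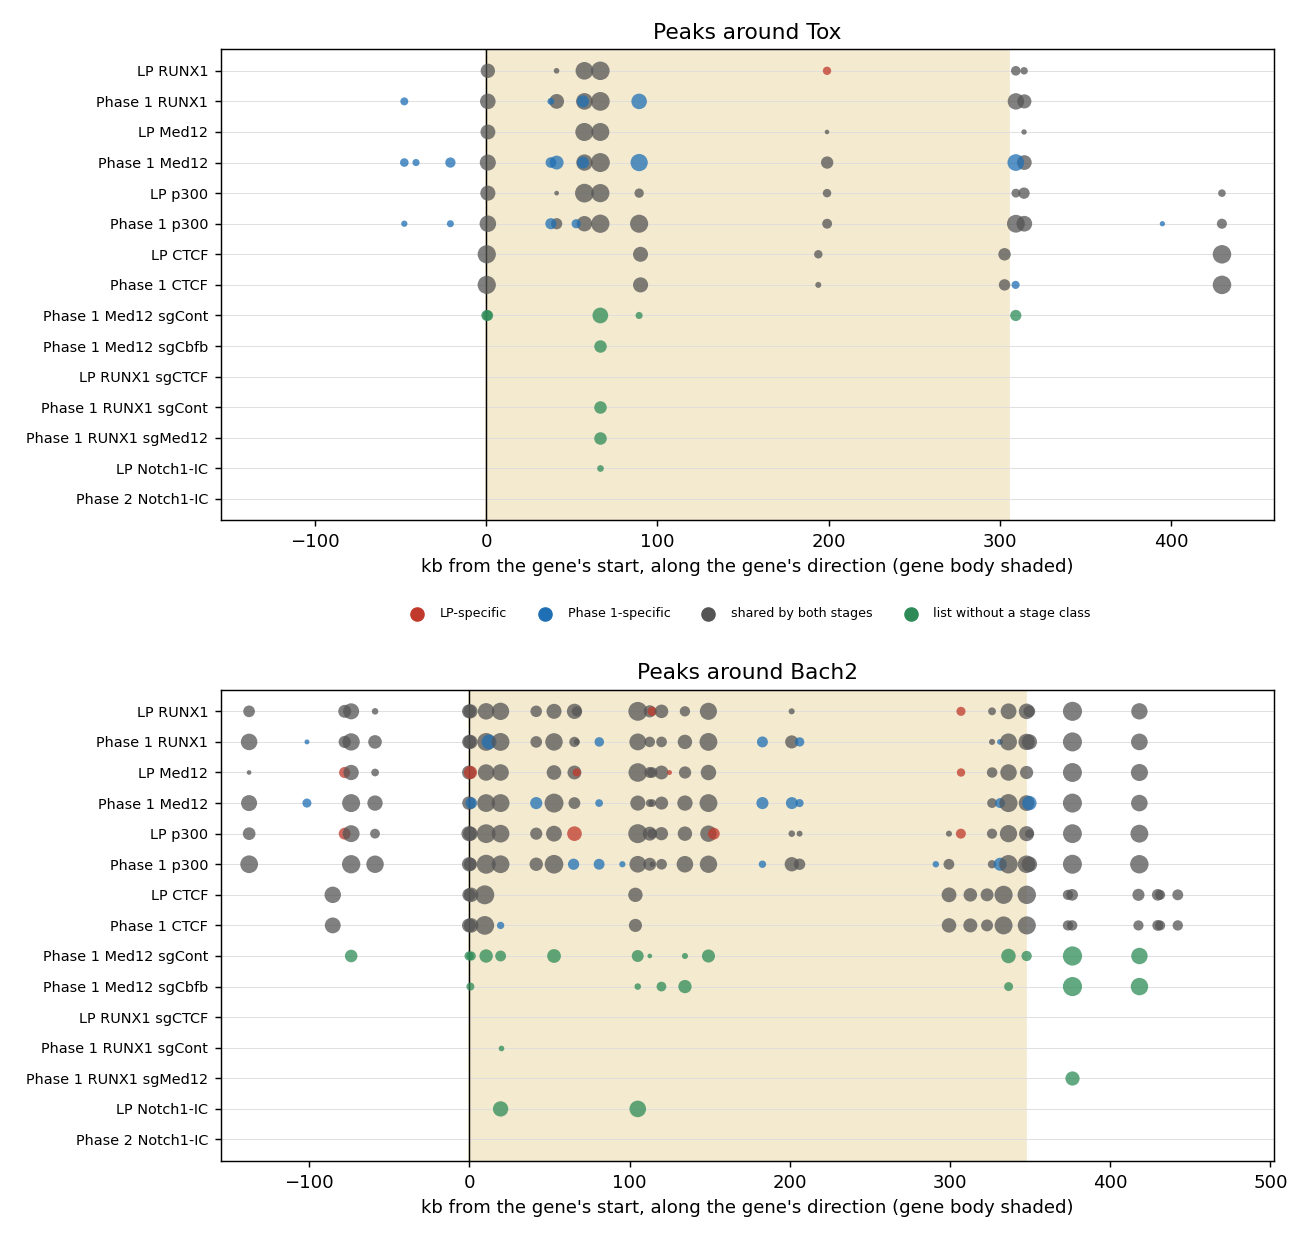
Every peak around Tox and Bach2, drawn as for Myb and Satb1, by list (rows) and distance from the start in kb (horizontal axis). At Tox the region at +66.63 kb recurs in 11 lists. At Bach2 most RUNX1, Med12 and p300 points are shared by both stages, and the large points at +376.51 kb lie at the start of Casp8ap2.

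Sites bound in both stages were next compared by rank, promoters included. Of 45 RUNX1 sites, 31 ranked higher in Phase 1 (68.9%), as did 61.8% of the shared sites of the whole list. A gain of over 20 points was seen at 15 of the 45 (33.3%), against 14.7% of the whole list, and a loss of over 20 points at 4 (8.89%), against 4.21%. The gains came from all 4 genes, with 4 at Myb, 2 at Satb1, 3 at Tox and 6 at Bach2. The largest were at Myb +106.07 kb, Tox +41.11 kb (3.4 to 55.4 percent rank) and Tox +309.35 kb. For CTCF, 1 of 35 shared sites gained over 20 points and 0 lost as many. For Med12 12 of 36 and for p300 16 of 50 shared sites gained over 20 points, and the whole lists had 19.9% and 16.6%. These shares are descriptions, since the rank of a peak also depends on the other peaks of its list. They also cover unlike mixes of sites. Shared RUNX1 sites outside promoters were 40 of the 45 here and 18020 of 26610 in the whole list. For Med12 these counts were 31 of 36 and 16081 of 24171, and for p300 44 of 50 and 20129 of 28691.

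**Figure D4:**
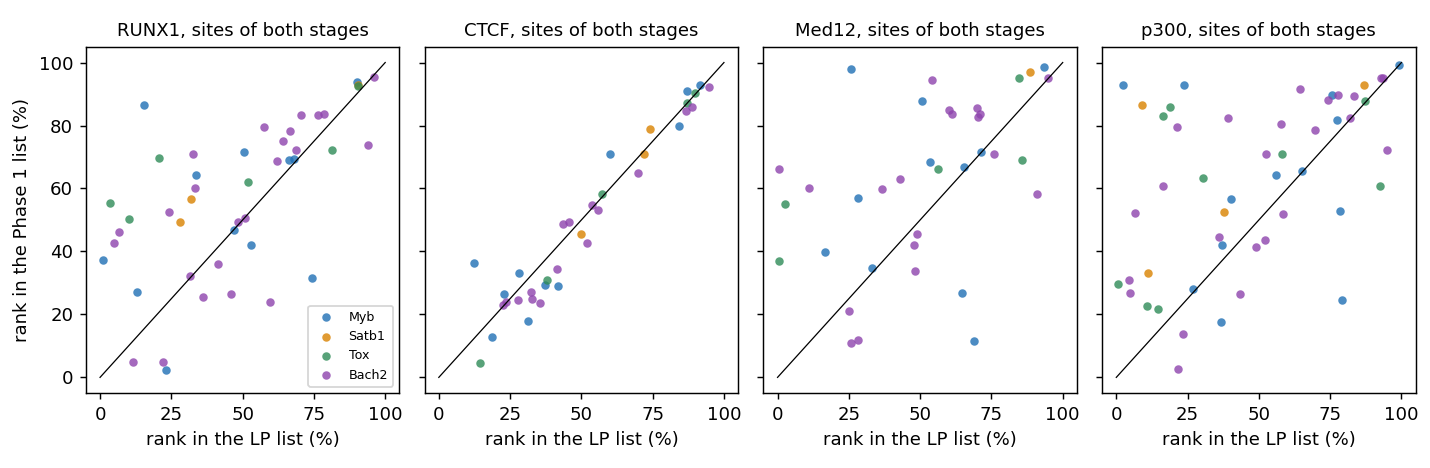
Rank of each site bound in both stages, as the percent of the list's peaks that scored no higher, in LP (horizontal axis) and Phase 1 (vertical axis), coloured by gene. The line marks equal rank. CTCF sites lie near the line, whereas 15 of 45 RUNX1, 12 of 36 Med12 and 16 of 50 p300 sites lie over 20 points above it.

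Mediator and p300 were then set beside the stage-specific RUNX1 sites. Phase 1-specific RUNX1 sites overlapped a Phase 1 Med12 peak at 16 of 20 (80%, whole list 75.4%) and a Phase 1 p300 peak at 13 of 20 (65%, whole list 79.7%). In LP the same 20 places held a Med12 peak at 0 (whole list 7.71%) and a p300 peak at 6 (30%, whole list 18.3%). All 6 LP-specific RUNX1 sites held LP Med12 and LP p300 peaks, against 61.2% and 75.7% of the whole list. Phase 1 Med12 peaks lay at 2 of the 6 (whole list 14.0%) and Phase 1 p300 peaks at 3 (whole list 25.9%).

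Where a stage-specific RUNX1 site met a stage-specific Med12 peak of a single stage, the stages matched throughout. Med12 was Phase 1-specific at 16 of 16 Phase 1-specific RUNX1 sites and at 0 of 4 LP-specific ones (two-sided Fisher's exact test, p = 0.000206, adjusted p = 0.00206 over 10 tests). The whole RUNX1 lists had the same pattern, with Phase 1 and LP Med12 peaks at 75.4% and 7.71% of Phase 1-specific sites and at 14.0% and 61.2% of LP-specific ones, so it was not particular to the 4 genes. For p300 the counts were 9 of 11 and 0 of 3 (exact p = 0.0275, adjusted p = 0.0916), which missed the threshold of 0.05. The p300 exceptions were at Myb, where the Phase 1-specific RUNX1 sites at +7.20 and -43.41 kb met LP-specific p300 peaks. Beside the second, at -43.87 kb, lay Phase 1 p300 (45.5) and Med12 (26.2) peaks that shared no base with the RUNX1 peak. Sites of 1 gene are not independent of each other, and with windows of 50 kb on each side the adjusted p for Med12 was 0.128 in the same exact test.

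Counted without regard to RUNX1, Med12 had 12 LP-specific peaks of 48 in LP (whole list 19.5%) and 34 Phase 1-specific of 70 in Phase 1 (48.6%, whole list 38.2%). The Phase 1-specific share was 8 of 9 at Satb1, 8 of 13 at Tox, 9 of 20 at Myb and 9 of 28 at Bach2. For p300, 14 of 64 LP peaks (whole list 20.7%) and 27 of 77 Phase 1 peaks (35.1%, whole list 41.6%) were stage-specific. At Tox none of the 5 LP Med12 peaks and none of the 9 LP p300 peaks was LP-specific.

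CTCF was compared with RUNX1 because the study asked whether the 2 factors part at Notch stimulation. CTCF peaks were mostly shared, with 2 LP-specific of 37 in LP (whole list 9.55%) and 5 Phase 1-specific of 40 in Phase 1 (12.5%, whole list 8.35%). Of all distinct CTCF sites, promoters included, 35 of 42 were shared (83.3%). Of RUNX1 sites, counted outside promoters only, 40 of 66 were shared (60.6%). The odds ratio was 3.25 (two-sided Fisher's exact test, p = 0.0178, adjusted p = 0.0889). The difference of 22.7 points therefore missed the threshold after adjustment, and these shares cover unlike mixes of sites. In the whole lists, stage-specific peaks made up 9.55% of CTCF peaks in LP and 8.35% in Phase 1. For RUNX1 outside promoters they made up 21.3% and 38.1%. CTCF was thus the more often shared factor there too, so this direction was not particular to these genes. CTCF met 1 of 6 LP-specific RUNX1 sites (whole list 37.2%) and 1 of 20 Phase 1-specific ones (whole list 6.45%), with an exact p of 0.415 and an adjusted p of 0.593.

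The strongest CTCF sites were found in both stages. At Myb the peaks near +168.13 kb scored 221.0 in LP and 257.1 in Phase 1, those near -28.22 kb 193.5 and 237.6, and those in the gene at +2.74 kb 179.9 and 168.9. At Satb1 the highest were at +55.20 kb (136.1 and 163.3). At Tox they were at +429.81 kb (210.0 and 233.5) and near the start at +0.26 kb (195.0 and 209.0). At Bach2 they were at +9.67 kb (248.0 and 248.1) and just past the end of the gene at +347.97 kb (203.6 and 200.3).

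The 5 Phase 1-specific CTCF peaks scored lower than the shared ones. They lay at Myb +105.96, +60.10 and +42.75 kb, Tox +309.24 kb and Bach2 +19.54 kb. Their scores were 20.9 to 27.3, and shared Phase 1 peaks at the 4 genes had a median of 59.3. The whole list had the same pattern, with a median of 21.8 for Phase 1-specific and 78.6 for shared CTCF peaks. All 5 overlapped Phase 1 peaks of RUNX1, Med12 and p300, as did 26.1%, 26.6% and 29.7% of the Phase 1-specific CTCF peaks of the whole list. None held the CTCF consensus in its central 200 bp, against 4.79% of such peaks in the whole list. With 5 peaks these shares cannot be told apart. The consensus was found in 6 of the 35 shared CTCF peaks (17.1%) and in 17.7% of shared peaks over the whole list. The 2 LP-specific CTCF peaks, at Myb -4.77 and -91.37 kb, scored 20.3 and 28.0, and the second fell on the strongest RUNX1 site of Myb.

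Notch1-IC peaks were few in every list. In LP, where no ligand was given, the list was the longest, with 1585 peaks. Its peaks here lay at Tox +66.66 kb (score 15.4) and at Bach2 +19.53 and +105.14 kb (22.4 and 26.1). Each fell in a merged region with RUNX1, Med12 and p300 peaks of both stages. Shared LP RUNX1 sites outside promoters held an LP Notch1-IC peak at 3 of 40 (7.5%), against 7.125% of the whole list. Whether these LP peaks reflect binding of Notch1-IC was not tested. The Phase 1 list of 152 peaks had none in the 4 windows. The Phase 2 list of 352 peaks had 3, all at Myb, at +60.16, +106.06 and +112.04 kb with scores of 24.0, 15.2 and 22.7. These are the sites near +60.19, +106.07 and +112.05 kb, which were chosen for description after their values were seen. Their match with the Notch1-IC peaks is therefore a description and not a separate finding. Each carried Phase 1 RUNX1, Med12 and p300 peaks. The Notch1-IC peaks at Tox +66.66 kb and Myb +106.06 kb scored close to the lowest value of 15. Of the 20 Phase 1-specific RUNX1 sites at the 4 genes, 2 held a Phase 2 Notch1-IC peak (10%), against 0.613% of the whole list. The window printed for +112.05 kb holds an RBPJ string and a RUNX string, that for +106.07 kb an RBPJ string, and that for +60.19 kb an AP-1 string only.

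The guide against Cbfb addresses whether Med12 peaks depend on the RUNX partner. Of 30 sgCont Med12 peaks at the 4 genes, 11 were found in the sgCbfb list (36.7%, 21.9 to 54.5), against 67.8% of the whole sgCont list. Per gene the peaks found were 4 of 9 at Myb, 1 of 2 at Satb1, 1 of 5 at Tox and 5 of 14 at Bach2. Promoter peaks were 7 of the 30 here and 8067 of 19053 in the whole sgCont list, so these shares cover unlike mixes. Outside promoters 7 of 23 were found (30.4%, 15.6 to 50.87), an interval that included the 49.8% of the whole list. At promoters 4 of 7 were found (57.1%, 25.05 to 84.18, whole list 92.3%). In the other direction 11 of 18 sgCbfb peaks were found in the sgCont list (61.1%, 38.6 to 79.7), against 71.4% of the whole list. No test was planned for the lists with guides.

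**Figure D5:**
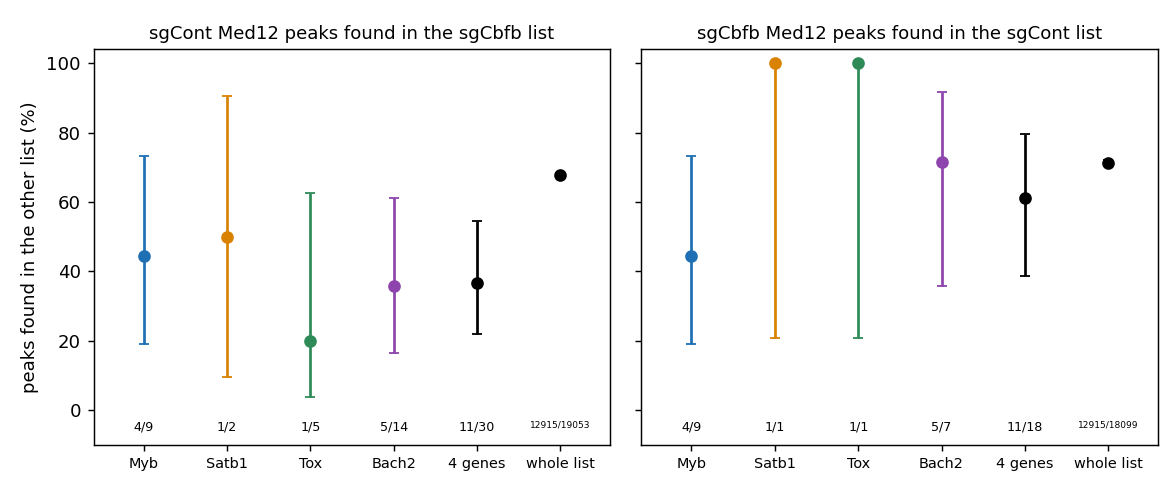
Share of Med12 peaks of 1 guide list, in percent, that overlapped a peak of the other guide list, by gene, for the 4 genes together and for the whole list. Bars are 95% Wilson intervals and fractions give the counts. Of the sgCont peaks at the 4 genes 11/30 were found with sgCbfb, and of the sgCbfb peaks 11/18 with sgCont.

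The sgCont Med12 peaks without a sgCbfb counterpart included 2 of the downstream sites of Myb. The highest-scored at Myb were at +60.15 kb (69.0), +112.09 kb (54.9) and -74.43 kb (38.0), at Bach2 +52.88 kb (33.9), +10.50 kb (32.3) and +149.28 kb (31.0), and at Tox +309.34 kb (24.9), +0.26 kb (24.2) and +0.91 kb (23.5). At Satb1 the peak at +0.03 kb (19.5) had no counterpart. The third downstream site of Myb, at +106.06 kb, had a Med12 peak in both lists, which scored 69.9 with sgCont and 19.6 with sgCbfb, at the 81.8 and 15.9 percent ranks. Of the 19 peaks without a counterpart, 17 lay on a Phase 1 RUNX1 peak (whole list 93.6%), 12 on an LP Med12 peak (whole list 75.8%) and 8 on a Phase 1 CTCF peak (42.1%, whole list 13.6%). All 11 with a counterpart lay on RUNX1, Med12 and p300 peaks of both stages, as did 92.7% to 95.7% of such peaks of the whole list for each of the 6 lists.

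The 7 sgCbfb Med12 peaks without a sgCont counterpart were at Myb and Bach2. The highest-scored were at Myb +77.29 kb (26.6), +83.68 kb (22.5) and +168.13 kb (20.2), and at Bach2 +119.93 kb (21.4) and +0.66 kb (18.5). At the Bach2 start, sgCont Med12 peaks lay in the merged regions on either side, near -0.15 kb (20.1) and +1.16 kb (20.3). They shared no base with the sgCbfb peak, so each was counted as without a counterpart and, by HOMER, outside promoters. The +0.66 kb peak may thus be a shift in peak position rather than a gain, which was not tested. LP RUNX1 peaks lay at 6 of the 7 (85.7%, whole list 53.5%) and Phase 1 RUNX1 peaks at 3 (42.9%, whole list 38.6%). LP Med12 peaks lay at 6 of the 7 (whole list 55.6%) and at 17 of all 18 sgCbfb peaks (whole list 84.0%). Among them was +77.29 kb, the Myb site whose RUNX1, Med12 and p300 ranks were higher in LP than in Phase 1 in cells without guides.

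The RUNX1 lists with guides were short and held few peaks at the 4 genes. In Phase 1 with sgCont, peaks lay at Myb +60.22 kb (23.9), +106.07 kb (19.7) and +112.05 kb (19.0), at Satb1 +18.73 kb (23.5), Tox +66.64 kb (21.8) and Bach2 +19.50 kb (15.4). With sgMed12 they lay at Myb +106.10 kb (20.9), Satb1 +18.71 kb (21.3), Tox +66.59 kb (19.2) and Bach2 +376.50 kb (21.2). Thus 3 of the 6 sgCont peaks were found with sgMed12, against 71.0% of the whole sgCont list. In LP the sgCont list had no peak in the 4 windows and the sgCTCF list had 1, at Satb1 +18.78 kb (18.8). With so few peaks a missing one cannot be told from one that fell under the score limit of 15.

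Strings in the RUNX1 peaks were counted beside those of the whole lists, without a test. Only the RUNX, RBPJ and CTCF strings are given here, while PU.1, AP-1, GATA, TCF and E-box strings were also searched. Of the 52 LP peaks 45 were shared with Phase 1, so the LP and Phase 1 shares are not separate observations. A RUNX string lay in the central 200 bp of 12 of 52 LP peaks (23.1%, whole list 21.2%) and 19 of 67 Phase 1 peaks (28.4%, whole list 25.4%), and in 3.85% and 2.99% of windows placed 2 kb to the side. The RBPJ string was found in 10 of 67 Phase 1 peaks (14.9%, 8.31 to 25.3), against 5.29% of the whole list and 5.97% of the side windows. In LP it was found in 6 of 52 peaks (11.5%, 5.40 to 23.0), against 4.23% of the whole list and 7.69% of the side windows. The CTCF consensus was in none of the 52 LP and 67 Phase 1 peaks, against 2.17% and 0.711% of the whole lists. None of the 7 LP-specific peaks, promoters included, held a RUNX string (whole list 13.5%), and 6 of the 22 Phase 1-specific peaks did (whole list 29.8%).

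Set beside other genes with windows built in the same way, Myb stood highest among the 4 members. Its 2.08 Phase 1-specific RUNX1 sites per 100 kb compared with a density no higher at 95.3% of the 21938 protein-coding genes. Bach2 had 0.93 per 100 kb (66.5% no higher), Satb1 0.76 (61.6%) and Tox 0.66 (59.6%), and the median of all coding genes was 0.595. Among 24 lymphoid transcription factor genes, Phase 1-specific sites numbered 0 to 12 with a median of 4, and they outnumbered LP-specific ones at 18 of the 24. Their density at these 24 genes was 0 to 3.96 per 100 kb with a median of 1.215, which lay above the values of Bach2, Satb1 and Tox and below that of Myb. Phase 1-specific sites also outnumbered LP-specific ones at all 4 members and at 11207 of the 21938 coding genes. Windows of neighbouring genes overlap, so these genes are not independent of each other.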

How the data were processed

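ChIP-seq was performed by the authors on Cas9-LP cells in 38 samples (19 groups of 2). Reads were aligned to mm10 with Bowtie 1.1.1 and peaks called with HOMER in factor style against matched controls. Peaks reproducible by the irreproducible discovery rate with a peak score of at least 15 were deposited as 17 lists. The deposited score is the authors' normalized peak score, whose scale was not stated, and no read depth entered the comparisons. Signal was therefore compared between lists only as a rank within each list. Scores of different lists printed side by side are descriptions. 

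Members and gene lists were chosen with earlier results of these data known. Overlaps and counts were computed in Python (3.11.15) with pandas (2.3.3) and numpy (2.4.6), and tests with scipy (1.17.1). Peaks overlapped when they shared at least 1 bp. Peaks named singly were every Notch1-IC and guide RUNX1 peak, RUNX1 peaks within 1 kb of a start, the 3 highest-scored of each RUNX1 class, the strongest and the stage-specific CTCF peaks, and the 3 highest-scored Med12 peaks missing under either guide. Sites named for their rank in both stages were added after their values were seen. Two-sided Fisher's exact tests with Benjamini-Hochberg adjustment over 10 were tested on simulated data first. Windows of 50 kb, promoters kept, overlap of at least 50% of the shorter peak, a score of 30 and lists shortened to equal numbers of top-scored peaks were tried as alternatives. Strings were searched in GRCm38 on both strands, 1 window chosen by score is not reported here, and 122 peaks lay off the named chromosomes.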

Additional observations from a re-analysis of the deposited data

How the results depend on the processing

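No paired analysis was possible because each list combines both replicates of its group, and for the same reason no replicate could be left out. Differences are in percentage points. With windows of 50 kb, the CTCF difference between LP-specific and Phase 1-specific RUNX1 sites turned to -6.667 (Fisher's exact test, adjusted p = 1), and the Med12 difference stayed at 100 with an adjusted p of 0.128, where fewer sites were counted. The gap between shared CTCF and RUNX1 sites, which missed the threshold, passed it in the exact test with promoters kept (22.52, adjusted p = 0.0426), with overlap of at least 50% of the shorter peak (25.12, 0.033) and with scores of at least 30 (37.02, 0.00879). The p300 difference likewise passed with promoters kept (81.82, 0.0426), equal list lengths (71.43, 0.035) and scores of at least 30 (100, 0.00893). At scores of at least 30 the shared RUNX1 sites fell in number from 40 to 22 and the share of sgCbfb Med12 peaks found with sgCont was 83.33%. Among gene pairs, none of which was called, the sign turned for Myb against Satb1 at equal lengths (3.75), for Myb against Tox at equal lengths and at 50% overlap (15.18 and 2.614) and for Satb1 against Tox at scores of at least 30 (-11.43). Among other counts of sites, 7 moved by over 1.5 times, namely LP-specific CTCF (2 to 1 at 50 kb and at scores of at least 30), shared CTCF (35 to 21 at 50 kb), Phase 1-specific p300 (27 to 14 at equal lengths) and, at scores of at least 30, Phase 1-specific Med12 (34 to 20), shared Med12 (36 to 22) and shared p300 (50 to 30). Of the remaining values recomputed, 38 for the main comparisons and 79 for single genes and classes kept their direction and their side of the threshold or moved by no more than their limit, counting among the 38 the CTCF difference at scores of at least 30, which was 0 (exact test, adjusted p = 1). The cause of these shifts was not tested. Scores near 15, where many stage-specific sites lay, limit every count of missing peaks.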
